A study of Mus musculus with 10 samples.

Results

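Thy1, Cd44 and Ptprc encode surface proteins by which T cells are sorted and staged, and each gene is annotated with several transcripts. All transcripts of the 3 genes in the transcript quantification of 10 libraries were taken, which gave 28 transcripts (6 of Thy1, 9 of Cd44 and 13 of Ptprc) of the 111787 transcripts matched to the annotation. Of the 28, 25 had an estimated count in at least 1 library, and 21 passed the filter on low counts (6 of Thy1, 4 of Cd44 and 11 of Ptprc). The rule for choosing them takes every transcript of the 3 genes, whatever its level.

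The libraries were made from transferred CD8+ T cells recovered from melanoma, 5 labelled MIT-BATF and 5 labelled MIT-Empty, with 1 mouse behind each library. Splenocytes of Pmel Thy1.2/Thy1.2 mice, whose transgenic T cell receptor recognises the melanoma antigen gp100, were activated over 24 h by the gp100 peptide in medium holding IL-2 at 10 IU/mL. They were then transduced with the MSCV-IRES-Thy1.1 (MIT) retrovirus carrying the mouse BATF open reading frame (MIT-BATF) or no insert (MIT-Empty), and were kept in IL-15 and IL-7 (at 10 ng/mL each) with the dose of IL-2 raised to 50 IU/mL. Each CD45.1 (Ly5.1) recipient with a B16-F10 tumor received 5000000 Thy1.1+ cells into the retroorbital sinus, and on day 7 after transfer 2000 live (7AAD-) Thy1.1+ Pmel cells were sorted from the tumor of each mouse. Both groups therefore carried the vector, the culture and the sort. Young adult mice of both sexes were used, per the study's methods, and the age and sex behind each library were not given.

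Thy1 is a small glycoprotein held in the membrane by a GPI anchor, and mouse strains carry the Thy1.1 or the Thy1.2 allele. Its Thy1.1 allele was the tag of the vector, so that vector transcripts and the cells' own Thy1 were not separated in these counts. CD44 is the hyaluronan receptor that marks antigen-experienced T cells. Its standard form skips a block of variant exons, v1 to v10, and its variant forms include some of them. CD45, encoded by Ptprc, is the receptor tyrosine phosphatase that dephosphorylates Src family kinases such as Lck. Exons 4, 5 and 6 of Ptprc encode the A, B and C stretches of its outer domain. The form with all of them (B220 when detected on mouse B cells) and the form with none (CD45RO) are the ends of a range along which T cells shift when they are activated.

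The alternative exons of Ptprc distinguished its main transcripts, and so they are shown first. The sequences are those of GENCODE M21 on GRCm38 (mm10), written 5′ to 3′ along the minus strand of chromosome 1. Exon 4 (chr1:138122456-138122584) has 129 bases, exon 5 (chr1:138120020-138120166) has 147 and exon 6 (chr1:138117754-138117894) has 141, all of them coding.
Ptprc exon 4: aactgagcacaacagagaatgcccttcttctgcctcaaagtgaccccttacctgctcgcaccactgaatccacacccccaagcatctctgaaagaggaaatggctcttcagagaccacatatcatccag
Ptprc exon 5: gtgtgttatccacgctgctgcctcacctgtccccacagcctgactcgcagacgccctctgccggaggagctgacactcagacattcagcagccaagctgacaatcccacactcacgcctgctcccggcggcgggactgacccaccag
Ptprc exon 6: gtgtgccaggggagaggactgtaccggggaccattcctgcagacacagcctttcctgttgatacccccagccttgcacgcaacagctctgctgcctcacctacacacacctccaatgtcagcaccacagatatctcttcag

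The 30 bases across splice junctions show how the exons are joined in each Ptprc transcript. Each junction shown is in 1 annotated Ptprc transcript alone, except exon 3 to exon 4, which Ptprc-206 and Ptprc-212 share with Ptprc-207. The last 15 bases of the first exon are in lower case and the first 15 of the next exon are in capitals.
Ptprc-203, exon 3 to exon 7: ctacacccagtgatgGTGCCAGCCTCACAA
Ptprc-204, exon 3 to exon 8: ctacacccagtgatgCTACCACAACGAAGC
Ptprc-207, exon 3 to exon 4: ctacacccagtgatgAACTGAGCACAACAG
Ptprc-213, exon 3 to exon 5: ctacacccagtgatgGTGTGTTATCCACGC
Ptprc-213, exon 5 to exon 7: ggactgacccaccagGTGCCAGCCTCACAA

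Ptprc-203 (4702 bases, 30 exons) therefore held none of exons 4 to 6, as in CD45RO. Ptprc-204 (4611 bases) lacked exon 7 as well, and Ptprc-207 (5074 bases, 33 exons) held all of exons 4, 5 and 6. Ptprc-213 held exon 5 alone, as in CD45RB, but is annotated as a fragment of 702 bases with 8 exons and an incomplete end. A read from a later exon of a CD45RB transcript could therefore be assigned only to another transcript model.

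**Figure D1:**
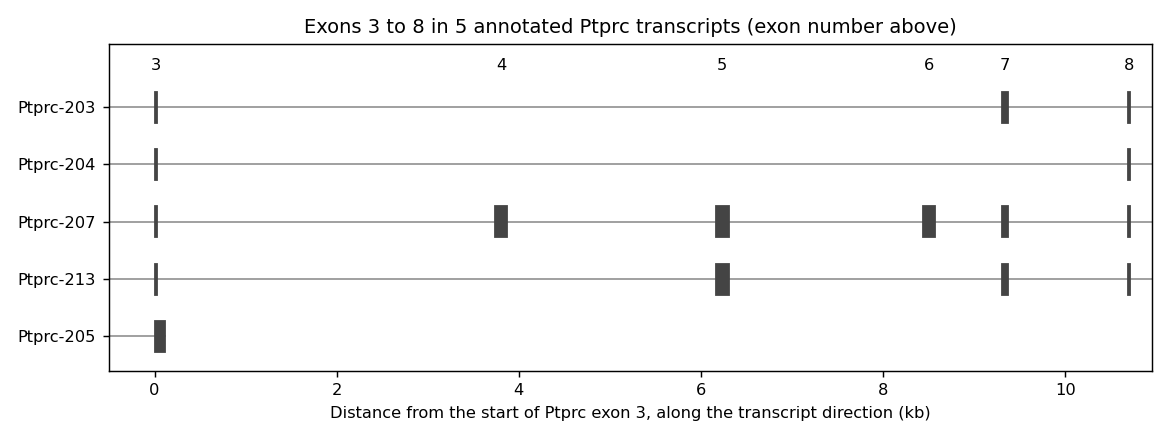
Positions of exons 3 to 8 in 5 annotated Ptprc transcripts, drawn to scale as distance in kb from the start of exon 3 in the direction of transcription; boxes are exons, grey lines are introns, and exon numbers stand above. Exons 4, 5 and 6 are all present in Ptprc-207 alone among the 5, Ptprc-213 holds exon 5 only, and Ptprc-205 ends in the intron after exon 3.

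Ptprc-205, a retained-intron model of 364 bases with 3 exons, began 402 bases upstream of the start of Ptprc-203 and ran 94 bases past exon 3 into the intron. Its last exon (chr1:138126209-138126326) is shown because the clearest separation of the groups was in this transcript. Exon 3 is in capitals and the intron in lower case.
Ptprc-205 last exon: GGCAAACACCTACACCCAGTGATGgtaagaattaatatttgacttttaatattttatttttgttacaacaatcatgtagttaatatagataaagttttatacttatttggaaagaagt

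For Cd44 (minus strand of chromosome 2) the joins around the variant block are shown in the same way, with the upstream exon in lower case and the downstream exon in capitals. Each is in 1 annotated Cd44 transcript alone, except v10 to the next exon, which 7 transcripts hold.
Cd44-203, exon 5 to the exon after v10: gcaccttggccaccaGAGATCGAGACTCAT
Cd44-207, exon 5 to v5: gcaccttggccaccaATATAGACAGAATCA
Cd44-207, v6 to v8: cagaagggacaactgATACAGACTCCAGTC
Cd44-201, exon 5 to v1: gcaccttggccaccaTTGCCTCAACTGTGC
Cd44-207, v10 to the next exon: atggctccttaccagGAGATCGAGACTCAT

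Cd44-203 was the standard form, Cd44-201 held v1 to v10, and Cd44-207 held v5, v6, v8, v9 and v10. Of the 9 models only Cd44-201 and Cd44-207 reach the distal 3′ end of the gene, 1406 bases beyond the end of Cd44-203. Reads from those last bases could be assigned only to these 2 variant forms.

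Depth was 10702908 to 34102346 estimated counts in the libraries labelled MIT-BATF (median 20971113) and 6534648 to 21355922 in those labelled MIT-Empty (median 12239636). Batf itself measured 12.4, 22.6, 23.6, 24.8 and 26.5 CPM (counts scaled to the library's total) in the 5 libraries labelled MIT-BATF, against 13.5, 19.9, 36.8, 24.9 and 50.8 CPM in the 5 labelled MIT-Empty. It was not higher in the libraries labelled MIT-BATF (log2 fold change -0.41, SE 0.30, edgeR adjusted p = 0.522). Whether the vector's reading frame was counted as Batf is not known, and each direction below is that of the libraries so labelled. In each group the counts of replicate 4 lay within those of replicate 2 and the counts of replicate 5 within those of replicate 3, with 0.288% to 0.568% of genes exceeding, against 3.44% or more for any other pair. For transcripts the nesting was less complete, with 5.53% to 8.08% exceeding in these pairs, against 10.2% or more for any other pair. If the nested counts come from the same reads, p-values over the 10 libraries are too small. An SD over 5 libraries is then not over 5 independent libraries. Results are therefore also given with shared reads counted once, which takes each contained library off its container. CD8 T cell markers such as Cd8a and Cd3e summed to 3127 to 5173 CPM in the libraries labelled MIT-BATF and 3480 to 5738 CPM in those labelled MIT-Empty. Mitochondrial genes took 11.5% to 33.2% of counts under MIT-BATF, with the highest value in replicate 1, and 15.5% to 23.1% under MIT-Empty.

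None of the 21 transcripts tested differed between the groups at an adjusted p under 0.05 by edgeR, where 0.721% of all 21925 transcripts tested did. At an unadjusted p under 0.05 there were 2 of 21 (Cd44-207, higher, and Ptprc-205, lower in libraries labelled MIT-BATF), against 10.4% of all transcripts. DESeq2 on the same counts called 1 of the 21, Cd44-207, against 3.42% of all transcripts. The fold estimate was above 0 for 15 transcripts and below 0 for 6. In the usage test, which compares each transcript with the rest of its gene (edgeR diffSpliceDGE), 0 of 21 passed at an adjusted p under 0.05, against 0.163% of 15977 transcripts, and 1 (Ptprc-213) had an unadjusted p under 0.05, against 2.3%. DESeq2 was not run for usage. The permutation test of each transcript's share of its gene's TPM (transcript abundance scaled for length and depth) called 0 of 21 after adjustment and none of 15960 transcripts overall. On unadjusted exact permutation p under 0.05 it put 2 of 21 (Ptprc-205 and Ptprc-208), against 11% of all.

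**Figure D2:**
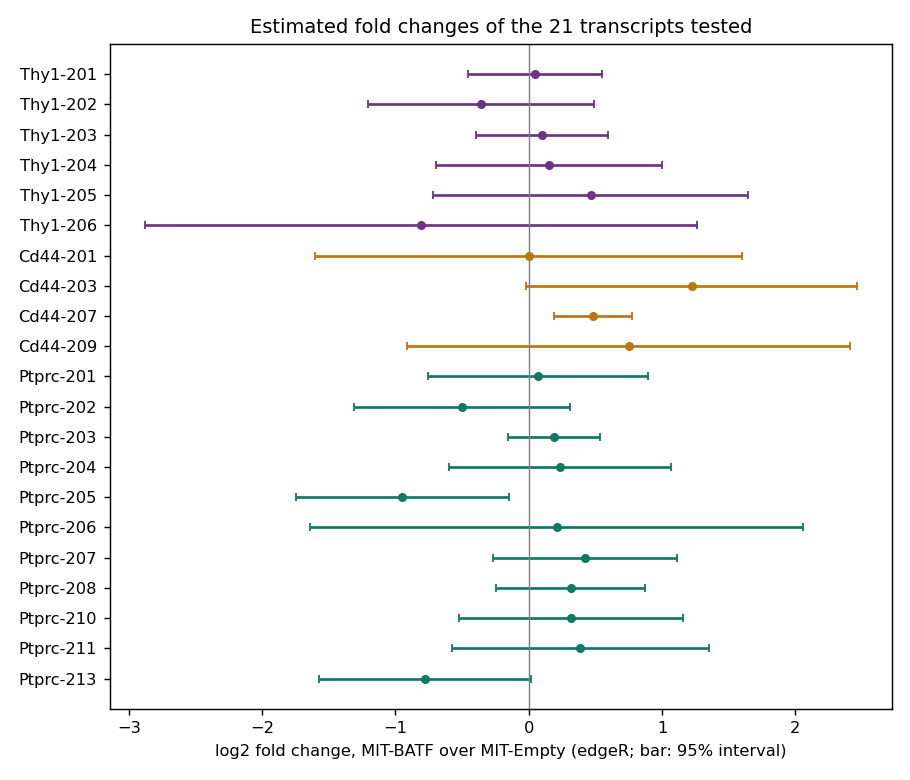
Estimated log2 fold changes of the 21 transcripts tested, MIT-BATF over MIT-Empty; points are edgeR estimates with 95% intervals, coloured by gene. The intervals of Cd44-207 (0.19 to 0.78) and Ptprc-205 (-1.75 to -0.15) exclude 0 before adjustment over all transcripts, and those of the other 19 include 0.

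Ptprc, the phosphatase gene on chromosome 1 (138062861 to 138175708), overlapped between the groups in total level. Its transcripts summed to 124, 155, 162, 136 and 100.4 TPM in the libraries labelled MIT-BATF, against 133, 126, 185, 128 and 163 TPM in those labelled MIT-Empty. The log2 fold change of the summed counts was 0.15 (SE 0.17, 95% interval -0.20 to 0.51, edgeR adjusted p = 0.697). It was 0.090 (adjusted p = 0.954) when shared reads were counted once, and -0.13 with an offset for transcript length.

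Ptprc-203, the form without exons 4 to 6, was the most abundant Ptprc transcript by TPM in every library except MIT-Empty replicate 5. Its share of Ptprc TPM was 76.5%, 60.1%, 55.3%, 60.4% and 65.5% in the libraries labelled MIT-BATF, against 61.8%, 55.3%, 44.7%, 54.2% and 39.1% in those labelled MIT-Empty. The mean share was 63.6% ± 8.09 in MIT-BATF, against 51.0% ± 9.08 in MIT-Empty (SD, 5 libraries each), and the ranges overlapped. The difference of 12.6 percentage points gave an exact permutation p of 0.0714 (adjusted p = 0.485), and 10.1 points with p = 0.143 by the same exact test once shared reads were counted once. In level, Ptprc-203 measured 94.7, 93.0, 89.5, 82.0 and 65.7 TPM in MIT-BATF and 82.1, 69.7, 82.8, 69.4 and 63.5 TPM in MIT-Empty. Its log2 fold change was 0.19 (SE 0.16, 95% interval -0.16 to 0.53, edgeR adjusted p = 0.774).

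Ptprc-213, the fragment with exon 5 alone, had the next highest mean share after Ptprc-203, and its mean difference had the opposite sign. It held 7.43%, 25.0%, 28.7%, 22.5% and 18.5% of Ptprc TPM in the libraries labelled MIT-BATF, against 20.1%, 24.7%, 40.8%, 29.0% and 44.4% in those labelled MIT-Empty. The lowest value was in MIT-BATF replicate 1, the library with the highest mitochondrial share, and the groups overlapped. Shares averaged 20.4% ± 8.16 in MIT-BATF, against 31.8% ± 10.5 in MIT-Empty (SD, 5 libraries each), a difference of -11.4 points with an exact permutation p of 0.111 (adjusted p = 0.555). By the usage test the transcript was lower relative to the rest of Ptprc by a log2 value of -0.94, with an unadjusted p of 0.0112 and an adjusted p near 1 by edgeR. Counting shared reads once gave a log2 value of -0.70 (unadjusted p = 0.117, edgeR). The level was 9.19, 38.6, 46.5, 30.5 and 18.5 TPM in MIT-BATF, from 113 to 1342 estimated counts, and 26.7, 31.1, 75.7, 37.1 and 72.2 TPM in MIT-Empty, from 201 to 1372 estimated counts. Its log2 fold change was -0.78 (SE 0.36, edgeR adjusted p = 0.497).

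Markers of other cell types were read beside these shares. The 6 B cell markers summed to 34.8 to 57.4 CPM in the libraries labelled MIT-BATF and 70.9 to 160 CPM in those labelled MIT-Empty, with no overlap, and 2 of the 6 passed the filter. Most of that sum was Ighm, at 43.5 ± 8.15 CPM in MIT-BATF, against 109 ± 36.8 CPM in MIT-Empty (SD, 5 libraries each). The other that passed the filter, Cd79b, a subunit of the B cell receptor, had the opposite direction, at 3.20 ± 0.967 CPM in MIT-BATF, against 0.932 ± 0.343 CPM in MIT-Empty (log2 fold change 1.79, edgeR adjusted p = 0.0175, and 0.128 with shared reads counted once). The B cell genes Cd79a, Ms4a1 and Pax5 were near 0, with group means of at most 0.149 CPM in MIT-BATF, against 0.174 CPM in MIT-Empty. Values of Ptprc-207, the transcript of the B220 form, are given below. The 10 macrophage and monocyte markers summed to 23.4 to 76.1 CPM in MIT-BATF, against 41.2 to 280 CPM in MIT-Empty, and 9 of 10 passed the filter. The 5 dendritic cell markers summed to 17.0 to 28.4 CPM in MIT-BATF, against 11.5 to 26.1 CPM in MIT-Empty. Among them Xcr1 and Itgax were higher in MIT-BATF (log2 fold change 2.06 and 1.84, edgeR adjusted p = 6.7e-04 and 0.0268), and H2-Ab1 was lower (-0.91, edgeR adjusted p = 0.124). The 3 NK cell markers summed to 10.3 to 20.1 CPM in MIT-BATF, against 8.71 to 16.5 CPM in MIT-Empty. The 8 melanoma markers summed to 14.4 to 29.5 CPM in MIT-BATF, against 39.7 to 1738 CPM in MIT-Empty, and 6 of 8 passed. In bulk samples fewer cells of a type and less RNA per cell cannot be told apart. The part of other cells in the Ptprc, Cd44 and Thy1 values was not tested.

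**Figure D3:**
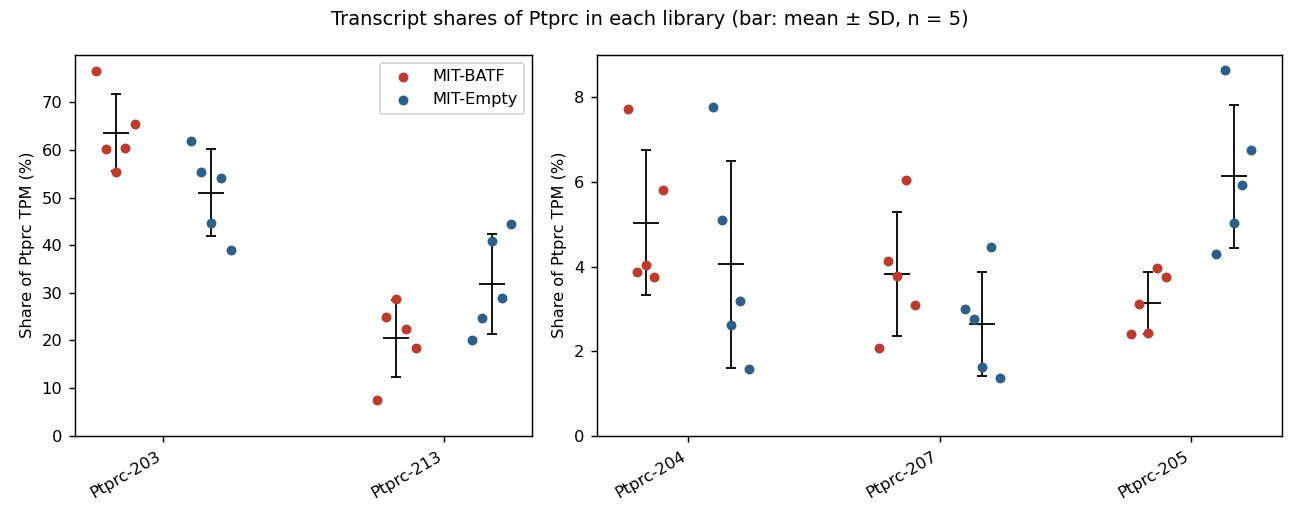
Share of Ptprc TPM in percent for 5 transcripts; each point is 1 library (MIT-BATF left, MIT-Empty right), and bars are mean ± SD over 5 libraries. Ptprc-203 and Ptprc-213 are in the left panel and the less abundant Ptprc-204, Ptprc-207 and Ptprc-205 in the right one; only Ptprc-205 has groups that do not overlap, with 2.41% to 3.98% in MIT-BATF and 4.29% to 8.65% in MIT-Empty.

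Ptprc-205, the short retained-intron model, had a lower share in each library labelled MIT-BATF than in any library labelled MIT-Empty. Its share was 2.41%, 3.12%, 2.42%, 3.98% and 3.75% in MIT-BATF, against 4.29%, 8.65%, 5.03%, 5.93% and 6.76% in MIT-Empty. Shares averaged 3.14% ± 0.729 in MIT-BATF, against 6.13% ± 1.68 in MIT-Empty (SD, 5 libraries each), a difference of -3.00 points. The exact permutation p was 0.00794, the smallest that assignments of 5 and 5 libraries can give, and the adjusted p was 0.255. Groups that did not overlap in this way were found for 3.11% of all transcript shares and for 1 of the 21 members, or 1.5% counting only shares lower in MIT-BATF.

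The level of Ptprc-205 rested on few reads. It measured 2.98, 4.83, 3.93, 5.39 and 3.77 TPM in MIT-BATF, from 14.4 to 44.5 estimated counts, and 5.70, 10.9, 9.33, 7.60 and 11.0 TPM in MIT-Empty, from 16.5 to 80.4 estimated counts. The log2 fold change was -0.95 (SE 0.36, unadjusted p = 0.0245, edgeR adjusted p = 0.376), and DESeq2 gave -0.998 (adjusted p = 0.105). With shared reads counted once the shares were 1.29% to 3.98% in MIT-BATF and 3.39% to 10.0% in MIT-Empty, which overlapped (exact permutation p = 0.0317, adjusted p = 0.988), where 0.896% of all shares did not overlap.

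The remaining isoform-defining transcripts of Ptprc overlapped between the groups. Ptprc-204, which skips exon 7 as well, held 5.04% ± 1.72 of Ptprc TPM in MIT-BATF, against 4.05% ± 2.45 in MIT-Empty (SD, 5 libraries each), with a log2 fold change of 0.23 (SE 0.38, edgeR adjusted p = 0.910). Ptprc-207, with all of exons 4 to 6, measured 2.58, 6.40, 6.12, 8.20 and 3.10 TPM in MIT-BATF and 3.98, 3.46, 3.03, 5.72 and 2.21 TPM in MIT-Empty. Its shares were 3.83% ± 1.47 in MIT-BATF, against 2.64% ± 1.24 in MIT-Empty (SD, 5 libraries each), with a log2 fold change of 0.42 (SE 0.31, edgeR adjusted p = 0.731).

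Counted by exon, the TPM share of Ptprc transcripts that contain exon 5 was 9.88%, 30.5%, 35.5%, 29.5% and 23.0% in MIT-BATF, against 23.8%, 28.6%, 43.9%, 34.7% and 46.4% in MIT-Empty. The difference was -9.83 points (exact permutation p = 0.175). Exon 4 was held by 4.72% ± 1.80 in MIT-BATF, against 4.48% ± 1.05 in MIT-Empty (SD, 5 libraries each), and exon 6 by 4.37% ± 1.42 in MIT-BATF, against 3.02% ± 1.29 in MIT-Empty. Ptprc-212, an incomplete model that ends inside exon 6, is not in the exon 6 value; counting it (chosen after seeing the data) gives 4.37% ± 1.42 in MIT-BATF, against 4.16% ± 1.07 in MIT-Empty, a difference of 0.203 points (exact permutation p = 0.817). Exon 7, a constant exon that Ptprc-204 skips, was held by 87.8% ± 1.32 in MIT-BATF, against 85.4% ± 1.97 in MIT-Empty (SD, 5 libraries each), with an exact permutation p of 0.0556. The total there includes the retained-intron models, none of which holds exon 7. Among coding transcripts alone exon 7 was held by 94.6% ± 1.81 in MIT-BATF, against 94.3% ± 1.82 in MIT-Empty (exact permutation p = 0.810). These 4 exons and the 10 variant exons of Cd44 were compared, and none of the 14 passed an unadjusted p of 0.05 in the 10 libraries. The 14 are sums over transcript models and not separate measurements. For Cd44, v1 to v4 and v7 had identical values in every library. So did v5, v6 and v8, which equalled the share of the models that reach the distal end. Values of v9 and v10 were nearly the same as these. Exon 7 passed without MIT-Empty replicate 3 (a difference of 2.80 points, exact permutation p = 0.0476) or replicate 4 (2.91 points, exact permutation p = 0.0397). Without MIT-Empty replicate 5 the 5 variant exons of Cd44-207 passed (-3.69 points for v10, exact permutation p = 0.0397), which are not 5 separate results. Among coding transcripts alone, those with none of exons 4 to 6 held 73.8% ± 9.97 in MIT-BATF, against 60.7% ± 12.3 in MIT-Empty (SD, 5 libraries each).

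Most other Ptprc entries were retained-intron models at low level. The 8 retained-intron models together held 7.14% ± 0.702 of Ptprc TPM in MIT-BATF, against 9.36% ± 1.79 in MIT-Empty (SD, 5 libraries each). Without Ptprc-205 the other 7 held 4.01% ± 0.999 in MIT-BATF, against 3.23% ± 0.296 in MIT-Empty, so that this sum had the opposite order. Ptprc-208, a single-exon retained-intron model at the 5′ end of the gene, held 0.813% ± 0.189 in MIT-BATF, against 0.584% ± 0.0663 in MIT-Empty (SD, 5 libraries each; exact permutation p = 0.0317, adjusted p = 0.397), and p was 0.238 by the same exact test with shared reads counted once. Ptprc-209 and Ptprc-212 did not pass the filter. Ptprc-212, a coding fragment with exon 4, had counts in MIT-Empty replicates 3 and 5 alone (25.8 and 31.3 estimated counts), where it held 1.71% and 4.01% of Ptprc TPM.

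Cd44, the hyaluronan receptor gene on chromosome 2 (102811141 to 102901665), was higher in the mean in libraries labelled MIT-BATF without passing adjustment. Its transcripts summed to 14.4, 24.7, 22.0, 17.3 and 12.9 TPM in MIT-BATF, against 9.63, 11.9, 14.3, 15.3 and 10.5 TPM in MIT-Empty. The groups overlapped, since MIT-BATF replicates 1 and 5 lay below MIT-Empty replicate 4. The log2 fold change of the summed counts was 0.46 (SE 0.16, 95% interval 0.13 to 0.79, unadjusted p = 0.00994, edgeR adjusted p = 0.119), where 4.58% of 11781 genes passed an adjusted p under 0.05. With shared reads counted once the fold change was 0.51 (adjusted p = 0.300), where 1.26% of genes passed. Without MIT-Empty replicate 4 it was 0.58 with an edgeR adjusted p of 0.0489.

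Nearly all Cd44 counts were assigned to Cd44-207, the form with v5, v6 and v8 to v10. It measured 13.3, 21.9, 18.9, 14.9 and 11.5 TPM in MIT-BATF and 9.51, 10.8, 12.9, 12.9 and 8.86 TPM in MIT-Empty. Its log2 fold change was 0.48 (SE 0.13, unadjusted p = 0.00436, edgeR adjusted p = 0.180), 0.47 by DESeq2 (adjusted p = 0.0287), and 0.52 (edgeR adjusted p = 0.675) with shared reads counted once. Over the alternatives the adjusted p of this fold change ran from 0.0287 to 0.675. As a share of Cd44 TPM it held 92.4%, 88.6%, 86.1%, 85.9% and 89.4% in MIT-BATF, against 98.8%, 90.9%, 90.3%, 84.2% and 84.7% in MIT-Empty. The shares overlapped (88.5% ± 2.65 in MIT-BATF, against 89.8% ± 5.90 in MIT-Empty, SD over 5 libraries each; exact permutation p = 0.698).

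Cd44-203, the standard form, measured 0.198, 0.445, 0.963, 0.747 and 0.362 TPM in MIT-BATF and 0.049, 0.202, 0.253, 0.186 and 0.396 TPM in MIT-Empty. These values rested on 14.7 to 166 estimated counts in MIT-BATF and 2.17 to 29.1 in MIT-Empty. The log2 fold change was 1.22 (SE 0.56, 95% interval -0.018 to 2.46, edgeR adjusted p = 0.490), and the share was 2.94% ± 1.39 in MIT-BATF, against 1.80% ± 1.22 in MIT-Empty (SD, 5 libraries each; exact permutation p = 0.183). As Cd44-203 stops 1406 bases short of the distal end, how reads were divided between it and Cd44-207 was not tested.

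Cd44-201, with the whole variant block, held 2.06%, 4.44%, 5.14%, 3.32% and 2.07% of Cd44 TPM in MIT-BATF, against 0.702%, 4.75%, 2.19%, 11.5% and 2.63% in MIT-Empty. MIT-Empty replicate 4, the shallowest library, held the highest of these values. That library also had the highest summed markers of melanoma (1738 CPM) and of fibroblasts and endothelium (107 CPM). The part of such cells in this share was not tested. The log2 fold change of Cd44-201 was below 0.01 in size (SE 0.72), with a 95% interval of -1.60 to 1.60 that leaves its direction unresolved. Cd44-209, a retained-intron model, held 0% to 8.88% over all libraries. Cd44-204 and Cd44-206 had counts in 1 and 2 libraries, at most 3.61 estimated counts, and did not pass the filter. Cd44-202, Cd44-205 and Cd44-208 had 0 counts in all 10 libraries, which allows a share of up to 0.0449% of the Cd44 counts in the deepest library and 0.381% in the library with the fewest Cd44 counts. These limits take 3 counts as the floor and cover counting error only, not the division of shared reads.

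**Figure D4:**
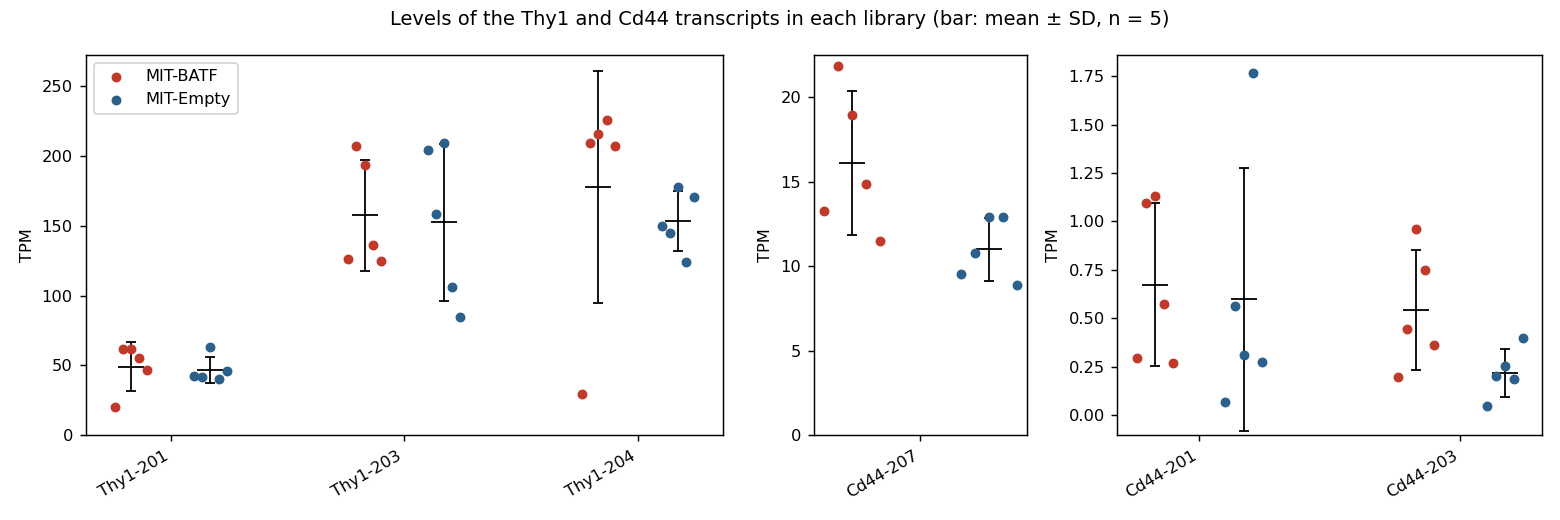
Levels in TPM of the main Thy1 and Cd44 transcripts; each point is 1 library (MIT-BATF left, MIT-Empty right), bars are mean ± SD over 5 libraries, and each panel has its own axis. Thy1-204 lies at 29.5 TPM in MIT-BATF replicate 1 and at 207 to 226 TPM in the other MIT-BATF libraries, and Cd44-207 lies at 11.5 to 21.9 TPM in MIT-BATF and 8.86 to 12.9 TPM in MIT-Empty.

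Thy1, the gene of the sort marker on chromosome 9 (44043384 to 44048579, plus strand), was the highest of the 3 genes in TPM. It summed to 183, 503, 503, 434 and 414 TPM in MIT-BATF, against 406, 380, 465, 296 and 318 TPM in MIT-Empty. MIT-BATF replicate 1 was the lowest of all 10 libraries, and 2 of the 4 other MIT-BATF libraries were above every MIT-Empty library. The log2 fold change of the summed counts was 0.070 (SE 0.20, 95% interval -0.35 to 0.49, edgeR adjusted p = 0.902), and counting shared reads once turned it to -0.091 (adjusted p = 0.956).

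Thy1 TPM lay mostly in 2 short models. Thy1-203 (449 bases) lies wholly within the last exon of Thy1-201, beyond the coding end, and carries no coding sequence. Thy1-204 (446 bases) begins its second exon 56 bases before the usual exon 3 of Thy1-201 and codes for a shorter product. The start of that exon is shown with the 56 bases in capitals and the shared bases in lower case (chr9:44046558-44046640, plus strand).
Thy1-204 second exon start: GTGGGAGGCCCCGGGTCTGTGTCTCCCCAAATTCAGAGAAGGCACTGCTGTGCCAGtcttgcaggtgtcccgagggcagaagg

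Thy1-203 measured 126, 207, 193, 136 and 125 TPM in MIT-BATF and 204, 158, 209, 106 and 84.9 TPM in MIT-Empty, a log2 fold change of 0.10 (SE 0.22, edgeR adjusted p = 0.942). Thy1-204 measured 29.5, 209, 216, 226 and 207 TPM in MIT-BATF and 150, 144, 178, 124 and 171 TPM in MIT-Empty. MIT-BATF replicate 1 stood apart from all others, and the other 4 MIT-BATF libraries were above all 5 of MIT-Empty. Over all libraries the log2 fold change of Thy1-204 was 0.16 (SE 0.38, edgeR adjusted p = 0.951), and without MIT-BATF replicate 1 it was 0.41 (edgeR adjusted p = 0.319). With shared reads counted once it was -0.042.

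In shares, Thy1-203 held 68.8%, 41.2%, 38.4%, 31.3% and 30.2% of Thy1 TPM in MIT-BATF and 50.3%, 41.6%, 45.0%, 35.9% and 26.7% in MIT-Empty. Thy1-204 held 16.1%, 41.6%, 42.8%, 52.0% and 50.0% in MIT-BATF and 37.0%, 38.1%, 38.2%, 41.9% and 53.7% in MIT-Empty. The 2 together held 80.1% to 84.8% in MIT-BATF and 77.8% to 87.2% in MIT-Empty, so the spread between libraries was in how their sum was divided.

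Thy1-201, the model that encodes the whole protein, had the steadiest share of the 3. It held 11.9% ± 0.793 of Thy1 TPM in MIT-BATF, against 12.6% ± 1.83 in MIT-Empty (SD, 5 libraries each; exact permutation p = 0.460). In estimated counts it was the largest Thy1 transcript in every library except MIT-BATF replicate 1, with 699 to 5415 counts in MIT-BATF and 654 to 3567 in MIT-Empty, because it is 1735 bases long. Its level was 19.9, 62.0, 62.0, 55.3 and 46.7 TPM in MIT-BATF and 42.1, 41.4, 63.1, 40.3 and 46.0 TPM in MIT-Empty. The log2 fold change was 0.047 (SE 0.23, edgeR adjusted p = 0.981). Of the remaining Thy1 models, the coding Thy1-205 and Thy1-206 and the retained-intron Thy1-202 held 0% to 7.89% each over the 10 libraries, and none passed a test.

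Genes that act with these transcripts were read from lists. Of 31 regulators of Ptprc and Cd44 splicing, 28 were tested at the gene level and none passed an adjusted p under 0.05 by edgeR, where 4.58% of all genes did. Their median log2 fold change was -0.0040, beside 0.0065 over all genes. Hnrnpll, which represses the variable exons of Ptprc, measured 24.4 ± 3.42 CPM in MIT-BATF, against 31.1 ± 7.01 CPM in MIT-Empty (SD, 5 libraries each), a log2 fold change of -0.35 (SE 0.17, edgeR adjusted p = 0.295). Srsf5, a splicing factor of the SR family, measured 87.0 ± 15.5 CPM in MIT-BATF, against 60.9 ± 6.33 CPM in MIT-Empty (log2 fold change 0.51, edgeR adjusted p = 0.0658). The kinases Gsk3b and Clk1 had log2 fold changes of -0.43 and -0.32 (edgeR adjusted p = 0.130 and 0.292).

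Of 14 CD45 substrates and partners, 2 rose (2.16% of all genes did) and none fell in the libraries labelled MIT-BATF, with a median log2 fold change of 0.14. Pag1, the adaptor that recruits Csk and a CD45 substrate, measured 12.3 ± 2.04 CPM in MIT-BATF, against 4.71 ± 0.676 CPM in MIT-Empty (SD, 5 libraries each; log2 fold change 1.39, SE 0.20, edgeR adjusted p = 0.00122). Lgals3, the glycan-binding galectin 3, measured 238 ± 43.1 CPM in MIT-BATF, against 105 ± 45.7 CPM in MIT-Empty (log2 fold change 1.19, edgeR adjusted p = 0.0115). Both also passed with shared reads counted once. Among the other 12, Ptpn22 and Cd247 had log2 fold changes of 0.36 and 0.34 (edgeR adjusted p = 0.230 and 0.291).

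Of 22 CD44 ligands, linkers and sheddases, 14 were tested, 2 fell (2.43% of all genes did) and none rose, with a median of -0.057. Cd74, the invariant chain and a CD44 partner, measured 38.4 ± 10.2 CPM in MIT-BATF, against 146 ± 65.7 CPM in MIT-Empty (SD, 5 libraries each; log2 fold change -1.93, edgeR adjusted p = 0.00122). Spp1, the secreted ligand osteopontin, measured 25.5 ± 23.2 CPM in MIT-BATF, against 151 ± 20.7 CPM in MIT-Empty (log2 fold change -2.55, edgeR adjusted p = 0.00475). Both passed with shared reads counted once, and both genes are also expressed by macrophages, whose summed markers were given above; their part here was not tested. Rdx, the cortical linker radixin, had a log2 fold change of -0.29 (edgeR adjusted p = 0.228).

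Of 20 genes of Thy1 ligands and the GPI anchor, 17 were tested, 3 rose (2.16% of all genes did) and none fell, with a median of 0.037. Pag1 is also in this list. Itgax, an integrin subunit, measured 4.14 ± 1.20 CPM in MIT-BATF, against 1.18 ± 0.759 CPM in MIT-Empty (SD, 5 libraries each; log2 fold change 1.84, edgeR adjusted p = 0.0268), and Adgre5, the adhesion receptor CD97, measured 86.5 ± 11.9 CPM in MIT-BATF, against 56.9 ± 10.2 CPM in MIT-Empty (log2 fold change 0.60, edgeR adjusted p = 0.0377). With shared reads counted once only Pag1 of the 3 passed. Sdc4, a syndecan, had a log2 fold change of -1.08 (edgeR adjusted p = 0.127). Of 13 other T cell surface genes, most of them GPI-anchored, 12 were tested and 1 fell (2.43% of all genes did). This was Itm2a, an integral membrane protein, at 55.1 ± 10.4 CPM in MIT-BATF, against 102 ± 16.4 CPM in MIT-Empty (SD, 5 libraries each; log2 fold change -0.89, edgeR adjusted p = 0.00582), whose edgeR adjusted p was 0.0826 when shared reads were counted once. Ly6a and Nt5e had log2 fold changes of 0.54 and 0.60 (edgeR adjusted p = 0.161 and 0.127).

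Over the 10 libraries the genes whose log2 CPM ran most like Thy1 were Sars, Drap1 and Mrpl12 (Pearson r 0.957, 0.954 and 0.940) among 6421 genes compared, and the lowest was Nbr1 (-0.938). For Cd44 they were Ripor2, Ttc39b and Frmd4b (0.948, 0.948 and 0.939), with Map4k1 lowest (-0.970). For Ptprc they were Rbm39, Syap1 and Uty (0.984, 0.974 and 0.966), with Xrcc5 lowest (-0.964). These points share nested libraries and depth, and the correlations are descriptions with no test.

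The transcript tests could miss sizeable changes. In data simulated from these libraries, the transcript test recovered 3% of 2-fold and 27% of 4-fold changes, and the usage test recovered 0% of 2-fold and 3.33% of 4-fold changes. The simulated libraries were independent, without nesting or error of dividing reads. Changed transcripts were drawn at random from all those tested. The rates are averages over transcripts of all levels and were not measured for the members. Differences of transcript level or usage that did not pass are therefore not shown to be absent.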

How the data were processed

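RNA was measured by a modified SMART-Seq2 protocol with 37 bp paired reads, run by the authors through nf-core/rnaseq with the mouse mm10 genome and quantified with Salmon. The deposited tables hold the authors' estimated counts and TPM per transcript. Transcript identifiers, versions and lengths matched GENCODE M21, from which names, exons and sequences were taken; 305 of 112092 transcripts in the tables were unmatched, with 0.0617% to 0.089% of counts. Vector and allele transcripts were not separated, and the tables give no measure of the error of the estimates, so the error of dividing reads between transcripts is not in the tests. For the same reason no binomial interval is given for a share of TPM.

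Estimated counts were rounded and tested with edgeR 4.0.16 (TMM, filterByExpr, quasi-likelihood test, Benjamini-Hochberg over all features tested; diffSpliceDGE for usage) in R 4.3.3, with DESeq2 1.42.0 as an alternative. Shares of gene TPM were compared by exact two-sided permutation tests over all assignments of the libraries. Adjusted p for shares is over all transcripts tested. Marker sums are in CPM over the TMM-scaled library total, so they are not percentages of all counts. In the alternative of counting shared reads once, the counts of replicates 4 and 5 were taken off replicates 2 and 3 of the same group, set to 0 where negative, and TPM was recomputed; nested counts were thereby taken for shared reads, which were not examined. Other alternatives were leaving out the contained libraries or each replicate, RLE factors, no filter, a length offset, a mean count of at least 50, shares of counts or of coding transcripts, log2 ratios with 0.5 TPM added, and a replicate block.

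The edgeR tests of genes, transcripts and usage and the permutation test were checked on simulated data. Transcripts are named where their mean share was at least 5% in either group or where they define a protein isoform, and of each gene list the genes with the smallest p. The members and lists were chosen with earlier results of these data known. Some genes of the lists are not reported here by name.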

Additional observations from a re-analysis of the deposited data

Results flagged for a closer look

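Of 58 groups of 5 libraries examined (levels, shares and exon contents of the named transcripts), 4 held a library whose distance to its nearest neighbour was over 0.71 of the group's range. Chance gives about 1 in 20 for independent values, a rate that does not hold here. The libraries are nested, with replicate 1 alone outside the nested pairs of each group, and the groups repeat the same transcripts as levels and shares.

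In 3 of the 4 the library was MIT-BATF replicate 1, which also had the highest mitochondrial share (33.2%). Its summed Thy1 level was 183 TPM, against 414 to 503 TPM in the other MIT-BATF libraries. Its Thy1-204 level was 29.5 TPM, against 207 to 226 TPM in the others. Thy1-203 held 68.8% of Thy1 TPM there, against 30.2% to 41.2% in the others. The fourth was MIT-Empty replicate 3, with a Thy1-201 level of 63.1 TPM, against 40.3 to 46.0 TPM in the other MIT-Empty libraries.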

How the results depend on the processing

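No gene of the 3 passed in the 10 libraries; leaving out each replicate gave 0 to 1, with log2 fold changes of 0.40 to 0.58 for Cd44 (past the threshold without MIT-Empty replicate 4) and -0.013 to 0.23 for Thy1. Thy1 was -0.091 with shared reads counted once and -0.21 without the contained libraries, and Ptprc was -0.13 with a transcript length offset; the cause was not tested. Of the 21 transcripts, DESeq2 called 1 and every other setting 0; the usage and share tests called 0 of them under every setting. The variable exons past an unadjusted p of 0.05 numbered 0, and 0 to 5 on leaving out each replicate. The 5 were variant exons of Cd44 with nearly the same values, and are not 5 separate results.

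Over all features, the calls fell to 140 genes, 35 transcripts and 8 in usage with shared reads counted once. Without the contained libraries they were 96 genes and 1 transcript. DESeq2 called 916 genes and 749 transcripts, no filter gave 903 genes and 93 transcripts, and a mean count of at least 50 gave 13 in usage. The calls in the 10 libraries were 540 genes, 158 transcripts and 26 in usage. Leaving out each replicate gave 287 to 772 genes (321 without MIT-BATF replicate 2 and 287 without MIT-Empty replicate 2), 60 to 244 transcripts (most without MIT-BATF replicate 1) and 45 to 116 in usage.

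Replicate numbers did not pair the libraries: deviations of same-numbered libraries correlated at -0.046 to 0.22, and 2 of 5 numbers matched best with themselves. With a replicate block, 13 transcripts and 14 in usage passed; Thy1-201 was -0.0098, Thy1-204 -0.046 and Cd44-201 0.62 in log2 fold change.

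Small estimates changed sign. In log2 fold change with shared reads counted once, Thy1-201 was -0.060, Thy1-203 -0.093, Thy1-204 -0.042 and Cd44-201 0.62; without the contained libraries they were -0.17, -0.18, -0.28 and 1.17. Cd44-201 was 0.089 with no filter. Leaving out each replicate gave -0.029 to 0.22 for Thy1-201, -0.048 to 0.25 for Thy1-203, -0.0016 to 0.41 for Thy1-204, -0.28 to 0.96 for Cd44-201 and -0.074 to 0.56 for Ptprc-204. In share, with shared reads counted once, the differences were 0.090 points for Thy1-201 and 0.533 for Cd44-201, which is also Cd44 v7; without the contained libraries they were 0.220 and 1.34. Among coding transcripts Thy1-201 differed by 1.06 points and Ptprc exon 4 by -0.048. Ptprc exon 7 differed by -0.013 points as a share of estimated counts, and Cd44-203 by -0.0031 as a log2 ratio with 0.5 TPM added. Leaving out each replicate gave -4.65 to 5.00 points for Thy1-203, -4.16 to 4.83 for Thy1-204, -1.87 to 0.841 for Cd44-201 and v7, -2.68 to 0.966 for Cd44-207 and -0.249 to 0.899 for Ptprc exon 4. Directions of Ptprc-203, Ptprc-205, Ptprc-207 and Ptprc-213 did not change under any alternative run, in level or share. Few reads stood behind some named transcripts, with 14.4 estimated counts for Ptprc-205, 6.22 for Cd44-201 and 2.17 for Cd44-203 in their lowest libraries.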
